A study of Mus musculus with 19 samples.

Results

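Ntrk2 encodes TrkB, a receptor tyrosine kinase for neurotrophins, and its level and transcript forms were followed through 19 liver RNA libraries. The gene (ENSMUSG00000055254) lies on the plus strand of chromosome 13. It was taken by its symbol as 1 gene of the 35498 to which reads were summed, with all 10 of its annotated transcripts of the 116546 listed for each library. It was selected on its measured reads and TPM in these same groups, so its own levels and isoforms are described here without a test.

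The livers came from male mice of the strain written C57Bl/J6 in the labels, at 24 weeks, in 4 treatment groups. These were WSD+beta-Glucan (n = 4 libraries), WSD (n = 5), CTRL+beta-Glucan (n = 5) and CTRL (n = 5). The series title places them in a study of dietary oat beta-glucan, a soluble cereal fibre, and fatty liver disease. WSD is not spelled out in the labels and stands here as a group name, and no transgene or deletion is named. Whether each library is a separate mouse is not stated, so p-values measure the spread between these libraries, which may be partly technical.

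TrkB binds brain-derived neurotrophic factor (BDNF) and neurotrophin-4 with high affinity and neurotrophin-3 more weakly. The full-length receptor carries a tyrosine kinase domain inside the cell, which signals through Shc and phospholipase C gamma to the Ras-MAPK, PI3K-Akt and calcium pathways. The truncated form T1 has the same extracellular part and membrane span with a short tail of its own and no kinase. It is the main form in astrocytes, where it is known to bind ligand and to interact with a GDP-dissociation inhibitor of small GTPases. In the liver, the low-affinity neurotrophin receptor p75, encoded by Ngfr, is a known product of hepatic stellate cells.

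Among the 10 transcripts, Ntrk2-201 and Ntrk2-207 encode the full-length receptor of 821 codons. Ntrk2-202 and Ntrk2-204 encode T1 with 476 codons. Ntrk2-205, Ntrk2-209 and Ntrk2-208 encode further truncated receptors of 492, 489 and 466 codons. Ntrk2-203, Ntrk2-206 and Ntrk2-210 are annotated as a nonsense-mediated decay product, a processed transcript and a retained intron. The full-length and truncated forms share their first 11 coding exons with 1393 coding bases. Each truncated form then ends, before the kinase exons, in a last exon that the full-length forms lack. These last exons are not all separate. That of Ntrk2-204 lies within that of Ntrk2-202, and that of Ntrk2-209 (1209 bases) within that of Ntrk2-208 (1288 bases).

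The point where the forms part decides which receptor a read belongs to, and it is given here from the annotated transcripts (GENCODE M21). The 30 bases in lower case end the last shared coding exon. Capitals mark the coding bases that follow, to the stop codon in the truncated forms and for the first 90 bases of the next exon in the full-length form.
Ntrk2-202 (T1): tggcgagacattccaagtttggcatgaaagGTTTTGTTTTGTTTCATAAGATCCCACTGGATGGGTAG
Ntrk2-205: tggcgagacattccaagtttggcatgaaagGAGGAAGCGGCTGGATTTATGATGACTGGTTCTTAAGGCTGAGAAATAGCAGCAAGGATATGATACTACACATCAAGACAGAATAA
Ntrk2-209: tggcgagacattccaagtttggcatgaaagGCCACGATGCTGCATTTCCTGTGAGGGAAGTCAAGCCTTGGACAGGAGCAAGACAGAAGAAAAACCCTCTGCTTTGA
Ntrk2-208: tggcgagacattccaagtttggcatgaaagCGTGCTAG
Ntrk2-201 (full-length): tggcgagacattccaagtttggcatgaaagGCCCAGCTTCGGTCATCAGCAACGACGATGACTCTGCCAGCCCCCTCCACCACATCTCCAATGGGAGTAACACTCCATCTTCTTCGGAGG

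After the shared exons, T1 has 35 coding bases before the stop codon, Ntrk2-205 has 83, Ntrk2-209 has 74 and Ntrk2-208 has 5. The 74 bases of Ntrk2-209 also lie in the untranslated part of Ntrk2-208. Most of what separates T1 from the other forms is untranslated: the last exon of Ntrk2-202 is 5005 bases long in a transcript of 6846 bases, and that of Ntrk2-204 is 1098 bases of 3049. Ntrk2-201 has 8744 bases and Ntrk2-207 has 4706. A read in the shared exons fits every form. The split between forms thus rests on reads that reach exons, or parts of exons, which not all forms have, and is an estimate.

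**Figure D1:**
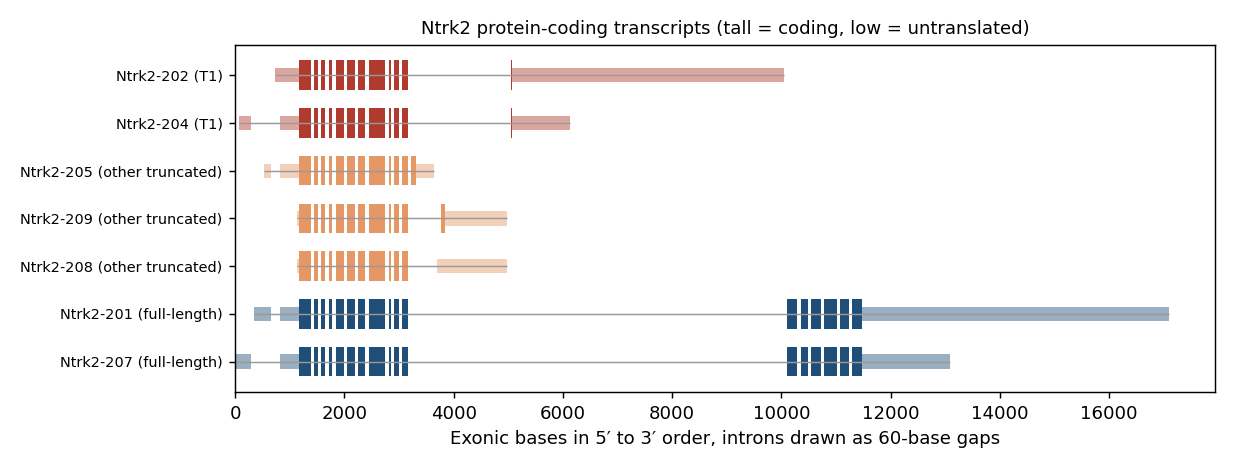
Exon maps of the 7 Ntrk2 transcripts that encode a receptor, drawn to scale in exonic bases with introns closed to gaps of 60 bases. Tall blocks are coding and low blocks untranslated. The 11 shared coding exons stand on the left, the T1 forms then end in their own last exon, and the full-length forms run on into the kinase exons.

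Depth was 17253823 to 23450232 estimated reads per library. Alb, the gene of serum albumin and a hepatocyte marker, was at 31235 CPM (read counts scaled to a common library size) or more in every library. Earlier work on these data named 3 libraries as standing apart, which are replicates 1 and 2 of CTRL+beta-Glucan and replicate 1 of WSD+beta-Glucan. Fold changes of Ntrk2 that they enter and the counts over the whole pathway are also given without them.

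Ntrk2 was near the limit of detection in livers of both CTRL groups and plainly present in livers of both WSD groups. The 4 WSD+beta-Glucan libraries had 21.3, 17.7, 19.9 and 15.6 CPM. The 5 WSD libraries had 20.6, 23.8, 34.5, 23.4 and 25.1 CPM. The 5 CTRL+beta-Glucan libraries had 0.289, 0.558, 0.360, 0.695 and 0.544 CPM, and the 5 CTRL libraries had 0.394, 0.305, 1.05, 0.709 and 0.360 CPM. No library of a WSD group fell within the range of a CTRL group. WSD replicate 3 held the highest level of all, and CTRL replicate 3 the highest of both CTRL groups.

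These levels stand on very different numbers of reads. Ntrk2 had 371 to 460 reads in a WSD+beta-Glucan library and 448 to 798 in a WSD library, against 4 to 15 in a CTRL+beta-Glucan library and 5 to 18 in a CTRL library. Summed over its 5 libraries, the CTRL group had 49 reads, with an exact 95% Poisson interval of 36.3 to 64.8 that covers counting error only. The levels in both CTRL groups are thus above 0 but loosely measured.

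Between WSD and CTRL livers, mean Ntrk2 was 25.5 ± 5.30 CPM and 0.563 ± 0.314 CPM (SD, n = 5 each), a ratio of 45.2. The fitted log2 fold change was 5.49 ± 0.24 (SE), the 24th highest of the 13594 genes fitted. Leaving out each library in turn gave 5.35 to 5.84. The within-group SD of Ntrk2 over the 19 libraries was 0.43 on the log2 CPM scale. In a bulk sample, more cells that express the gene and more of its RNA per cell cannot be told apart.

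The same comparison among beta-glucan livers gave a similar figure. WSD+beta-Glucan livers averaged 18.6 ± 2.49 CPM (SD, n = 4) and CTRL+beta-Glucan livers 0.489 ± 0.164 CPM (SD, n = 5), a ratio of 38.1. The fitted log2 fold change was 5.19 ± 0.24 (SE), the 27th highest of all genes fitted, and 5.02 without the 3 libraries that stand apart. The difference between the effects of beta-glucan on the WSD and on the CTRL background was -0.31 ± 0.39 on the log2 scale, smaller than its standard error.

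With beta-glucan on the WSD background, Ntrk2 was somewhat lower and remained far above CTRL. The ratio of WSD+beta-Glucan to WSD means was 0.730, and the fitted log2 fold change was -0.45 ± 0.17 (SE). In CPM, 3 of 4 WSD+beta-Glucan libraries lay below all WSD libraries, and replicate 1, with 21.3 CPM, lay above WSD replicate 1 with 20.6 CPM. This overlap depends on the scaling of libraries. CPM values use TMM factors, which were 1.02 to 1.17 in WSD+beta-Glucan libraries and 1.14 to 1.26 in WSD libraries, against 0.776 to 0.955 in CTRL+beta-Glucan and 0.829 to 0.896 in CTRL libraries. As reads over plain depth, an alternative added after the data were seen, Ntrk2 had 15.9 to 23.3 per 1e6 reads in WSD+beta-Glucan libraries and 25.8 to 39.9 in WSD libraries, with no overlap. In TPM the groups did not overlap either, with 4.47 to 6.36 TPM in WSD+beta-Glucan libraries and 6.59 to 10.5 TPM in WSD libraries. The log2 fold change was -0.52 without the 3 libraries that stand apart.

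On the CTRL background no difference could be seen at this depth. CTRL+beta-Glucan against CTRL gave a fitted log2 fold change of -0.15 ± 0.34 (SE), and -0.04 without the 3 libraries that stand apart. Leaving out single libraries gave -0.32 to 0.20, and the sign turned only without CTRL replicate 3, the library with the highest level of its group. The 4 group means thus ran, high to low, WSD, WSD+beta-Glucan, CTRL and CTRL+beta-Glucan. The last 2 did not differ beyond their spread, and the first 2 overlapped in CPM.

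**Figure D2:**
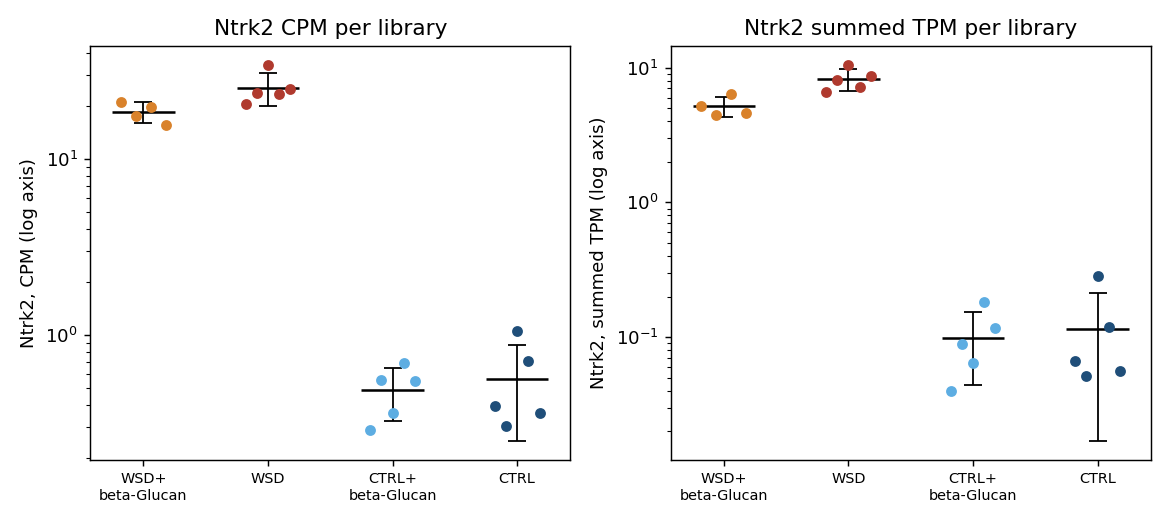
Ntrk2 in each library in CPM (left) and as the summed TPM of its transcripts (right), both on log axes. Points are libraries, horizontal lines are group means and bars are SDs. All 9 libraries of the WSD groups lie above all 10 libraries of the CTRL groups.

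Nearly all Ntrk2 RNA was assigned to truncated receptors, above all to T1. T1 transcripts averaged 4.69 ± 0.792 TPM in WSD+beta-Glucan livers (SD, n = 4) and 7.17 ± 1.16 TPM in WSD livers (SD, n = 5). They averaged 0.0761 ± 0.0243 TPM in CTRL+beta-Glucan livers and 0.0843 ± 0.0365 TPM in CTRL livers (SD, n = 5 each). T1 therefore carried the difference between WSD and CTRL livers that was seen in the gene as a whole. Its share in the TPM of receptor-coding Ntrk2 transcripts was 92.8 ± 3.04% in WSD+beta-Glucan livers and 89.1 ± 3.93% in WSD livers, ranges that overlapped.

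The full-length receptor was barely detectable. Its estimated reads were 1.23, 0, 2.58 and 4.19 in the 4 WSD+beta-Glucan libraries. They were 3.55, 5.34, 1.22, 2.50 and 0 in the 5 WSD libraries. No read was assigned to it in any CTRL+beta-Glucan or CTRL library. Pooled over libraries, 8 of 1634 receptor-coding reads were full-length in WSD+beta-Glucan livers, or 0.490%, with an exact (Clopper-Pearson) 95% interval of 0.212 to 0.962%. In WSD livers 12.6 of 2948 were full-length, or 0.428%, with an interval of 0.235 to 0.753%.

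Whether the full-length share differed in CTRL livers could not be detected. Both CTRL groups together had 94 receptor-coding reads, none of them full-length, which allows a share of up to 3.19% (3 reads of the total). That limit is above the shares measured in both WSD groups. These intervals and limits treat estimated reads as counts and cover counting error only. They also take every read as able to tell the forms apart, which reads in the shared exons cannot.

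The 2 T1 transcripts differed between the groups in their estimates. Ntrk2-204 starts with an exon of 214 bases that Ntrk2-202 lacks, and its last exon lies within the longer one of Ntrk2-202. Reads in that first exon can tell the 2 T1 forms apart. Ntrk2-204, the T1 form with the short last exon, took 27.4, 50.7, 95.4 and 82.7 reads in WSD+beta-Glucan libraries and 109, 93.4, 126, 104 and 91.2 reads in WSD libraries. It took 0 in each of the 10 libraries of the CTRL groups, where T1 reads went to Ntrk2-202. Pooled, it had 16.3% of T1 reads in WSD+beta-Glucan livers and 18.8% in WSD livers. In both CTRL groups together it had 0 of 84 T1 reads. A limit of 3 reads, or 3.58%, would hold only if every T1 read could tell the 2 forms apart. Reads in exons that both forms have cannot, so the share in CTRL livers may exceed that limit. Each CTRL or CTRL+beta-Glucan library had only 4 to 12.6 T1 reads. The part that such low numbers play in how reads are split between overlapping transcripts was not tested. Within the WSD groups, WSD+beta-Glucan replicate 1, a library that stands apart, had the lowest share of Ntrk2-204 with 7.20% of T1 reads.

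The other truncated receptors were a small remainder. Ntrk2-205 had 3.46 to 15.7 reads in WSD+beta-Glucan libraries and 0 to 33.4 in WSD libraries, and Ntrk2-209 had 0 to 5.43 and 0 to 27.3 reads in the same groups. With Ntrk2-208, which had 3.97 reads over all libraries, they made up 6.79 ± 2.73% of receptor-coding TPM in WSD+beta-Glucan livers (SD, n = 4) and 10.6 ± 3.95% in WSD livers (SD, n = 5). In the CTRL groups they were found in 2 of 5 CTRL+beta-Glucan libraries and in 1 of 5 CTRL libraries. That library, CTRL replicate 3, had 5.35 reads of Ntrk2-205 and also the highest Ntrk2 level of its group. The 3 transcripts that encode no receptor had 2.34, 2.16 and 1 reads over all 19 libraries. Because Ntrk2-206 is only 356 bases long, its 1 read in WSD+beta-Glucan replicate 1 amounted to 0.413 TPM, so it shows in the plot of shares by library.

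The scaling of libraries and the isoform estimates both bear on the size of the difference in the gene. The mean effective length, weighted by TPM, was 4816 ± 391 bases in WSD+beta-Glucan livers (SD, n = 4) and 4533 ± 77 bases in WSD livers (SD, n = 5). It was 5728 ± 771 bases in CTRL+beta-Glucan livers and 5842 ± 1045 bases in CTRL livers (SD, n = 5 each). Libraries ranged from 4612 to 6270 and from 3972 to 6328 bases in these last groups. There the length depends on how 4 to 15 and 5 to 18 reads per library were split between forms. Ratios by TPM carry that uncertainty too. By summed TPM, the ratio of WSD to CTRL was 71.1, against 45.2 by CPM, and that of WSD+beta-Glucan to CTRL+beta-Glucan was 52.4, against 38.1 by CPM. By reads over plain depth, with neither TMM factors nor transcript lengths, the ratios were 62.2 and 46.3. Leaving out the TMM factors shifts every gene alike, by 0.47 on the log2 scale for WSD over CTRL and by 0.30 for WSD+beta-Glucan over CTRL+beta-Glucan. All 3 scales give the same direction.

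**Figure D3:**
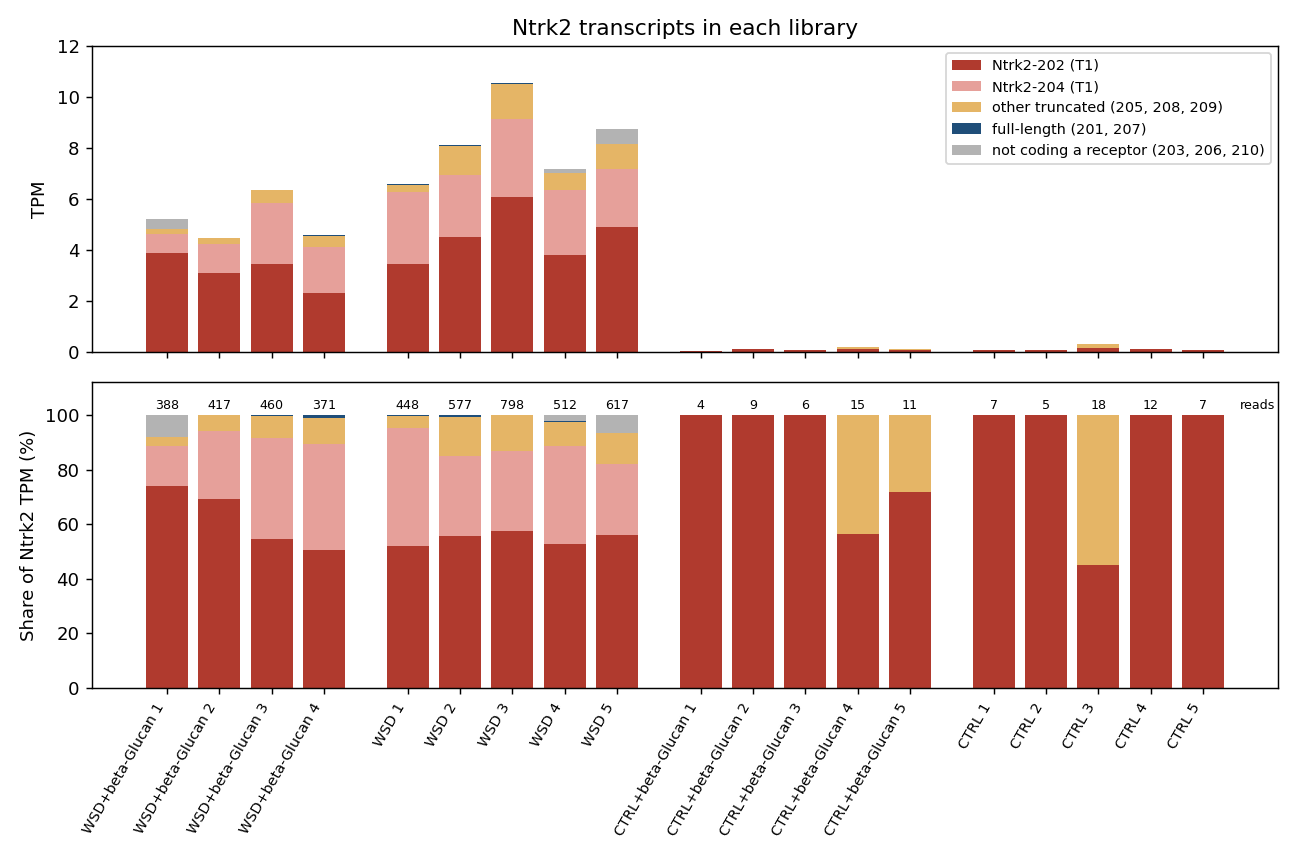
Ntrk2 transcripts in each library in TPM (top) and as shares of the gene's TPM (bottom). Numbers above the bars are the reads behind each library. Libraries of the WSD groups are mostly T1 in both forms, with full-length as a thin edge, and those of the CTRL groups rest on 4 to 18 reads.

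Among receptor tyrosine kinases, the family of growth factor receptors to which TrkB belongs, Ntrk2 stood near the top of the difference between WSD and CTRL. Of 58 such genes, 42 had enough reads to be fitted, and Ntrk2 had the second highest log2 fold change. Ephb2, a receptor for ephrin-B ligands, was ahead of it with 6.40 ± 0.45 (SE). Axl, a receptor for the bridging ligand Gas6, followed with 2.76 ± 0.26, Ddr1, a collagen receptor, with 2.59 ± 0.52, Csf1r, the macrophage colony-stimulating factor receptor, with 2.19 ± 0.33, and Pdgfrb, the platelet-derived growth factor receptor of mesenchymal cells, with 2.14 ± 0.30. The rank of Ntrk2 was 2 in all 24 alternative fits.

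Levels per transcript length placed the receptor differently. With 5.16 TPM in WSD+beta-Glucan livers and 8.23 TPM in WSD livers it was 15th and 13th of the 58 genes, against 39th in both CTRL groups with 0.0986 TPM in CTRL+beta-Glucan livers and 0.116 TPM in CTRL livers. Egfr, the epidermal growth factor receptor of hepatocytes, had 27.6 TPM in WSD livers and 74.6 TPM in CTRL livers. By edgeR's quasi-likelihood test, 53.0% of all genes tested differed between WSD and CTRL at an adjusted p under 0.05 (26.0% higher and 27.1% lower). Of the 41 other receptor tyrosine kinases tested, 20 were higher and 7 lower, or 65.9%, with a median log2 fold change of 0.35 against -0.04 over all genes.

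**Figure D4:**
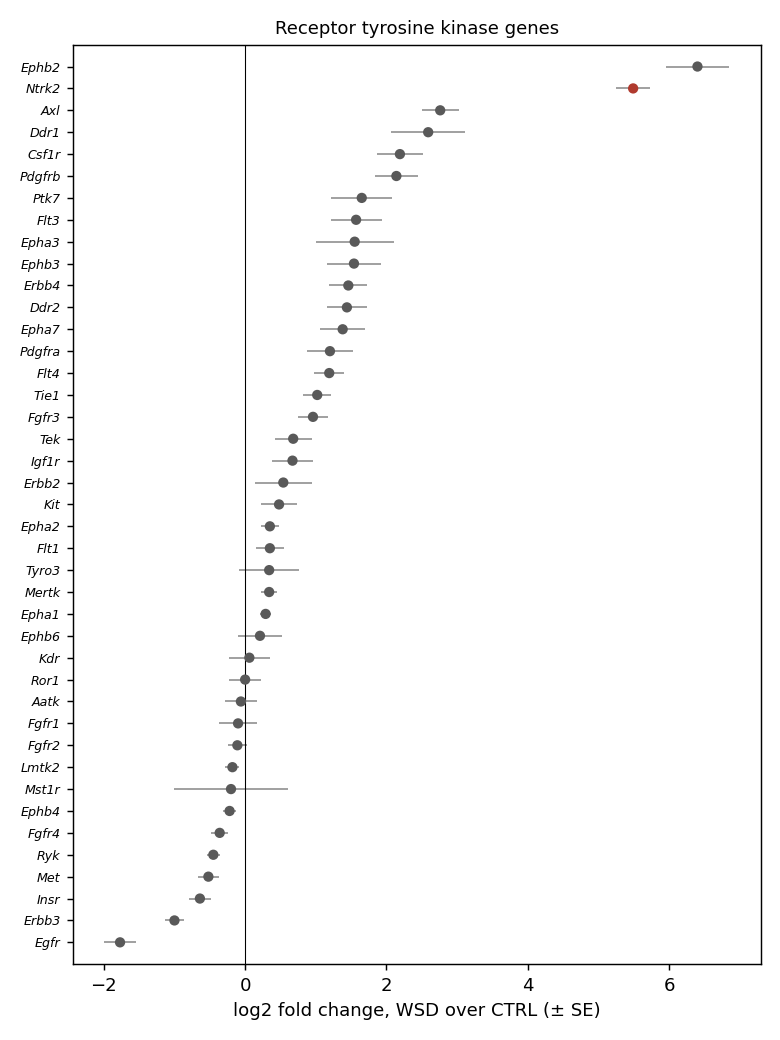
Log2 fold change of WSD over CTRL for 41 of the 42 receptor tyrosine kinase genes fitted, with SE bars. Ntrk2 (red) has 5.49, second to Ephb2 with 6.40, and the next gene, Axl, has 2.76.

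The ligands of TrkB were then compared, and its main ligand Bdnf gave no detectable difference between WSD and CTRL livers. Bdnf averaged 0.709 ± 0.0882 CPM in WSD livers and 0.682 ± 0.177 CPM in CTRL livers (SD, n = 5 each), with 8 to 19 reads per library and overlapping groups. Its log2 fold change was 0.06 ± 0.28 (edgeR adjusted p = 0.864). Ntf3, the gene of neurotrophin-3, averaged 0.997 ± 0.411 CPM in WSD livers and 0.751 ± 0.773 CPM in CTRL livers (SD, n = 5 each), a log2 fold change of 0.41 ± 0.48 (edgeR adjusted p = 0.486). CTRL replicate 3 alone had 2.10 CPM of Ntf3, above all other libraries, and without it the adjusted p was 0.0164. Ntf5, an alternative symbol of the neurotrophin-4 gene, had 0 to 5 reads per library and was not tested.

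Of the other neurotrophin receptors, those tested moved in both directions. Ngfr had 4.38, 7.67, 7.31, 4.90 and 7.31 CPM in WSD libraries, against 3.71, 1.77, 1.69, 1.60 and 1.54 CPM in CTRL libraries, and the groups did not overlap. Its log2 fold change was 1.61 ± 0.30 (edgeR adjusted p = 1.58e-04). In WSD+beta-Glucan against CTRL+beta-Glucan livers, Ngfr had 0.64 ± 0.31 (edgeR adjusted p = 0.111) and passed only without CTRL+beta-Glucan replicate 4 (adjusted p = 0.0246). Ntrk3, the gene of TrkC, had 0 to 11 reads per library and was not tested.

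Sorl1, a sorting receptor of the Vps10p family, rose with a log2 fold change of 2.07 ± 0.32 (edgeR adjusted p = 2.42e-05). Kidins220, a membrane scaffold that is phosphorylated downstream of Trk receptors, fell by 0.46 on the log2 scale (SE 0.09, edgeR adjusted p = 3.61e-04). In WSD+beta-Glucan against CTRL+beta-Glucan livers, Kidins220 had -0.12 ± 0.10 and did not pass (edgeR adjusted p = 0.364). Sort1, the gene of sortilin, which binds proneurotrophins together with p75, had -0.49 ± 0.20 (edgeR adjusted p = 0.0488), and this call was lost in 15 of 24 alternative fits, with an adjusted p of up to 0.122. Sorcs1, Sorcs2 and Sorcs3 had 4, 28 and 3 reads over all libraries and were not tested.

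With beta-glucan on the WSD background, no ligand or receptor named above passed the edgeR test, and DESeq2 called none of them. The log2 fold change of WSD+beta-Glucan over WSD was -0.11 ± 0.29 for Bdnf, -0.47 ± 0.30 for Ngfr and -0.24 ± 0.31 for Sorl1, with edgeR adjusted p of 0.895, 0.458 and 0.739. None of these 3 passed at an unadjusted p under 0.05. Of all genes tested, 0.390% differed in this comparison (0.0883% higher and 0.302% lower).

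**Figure D5:**
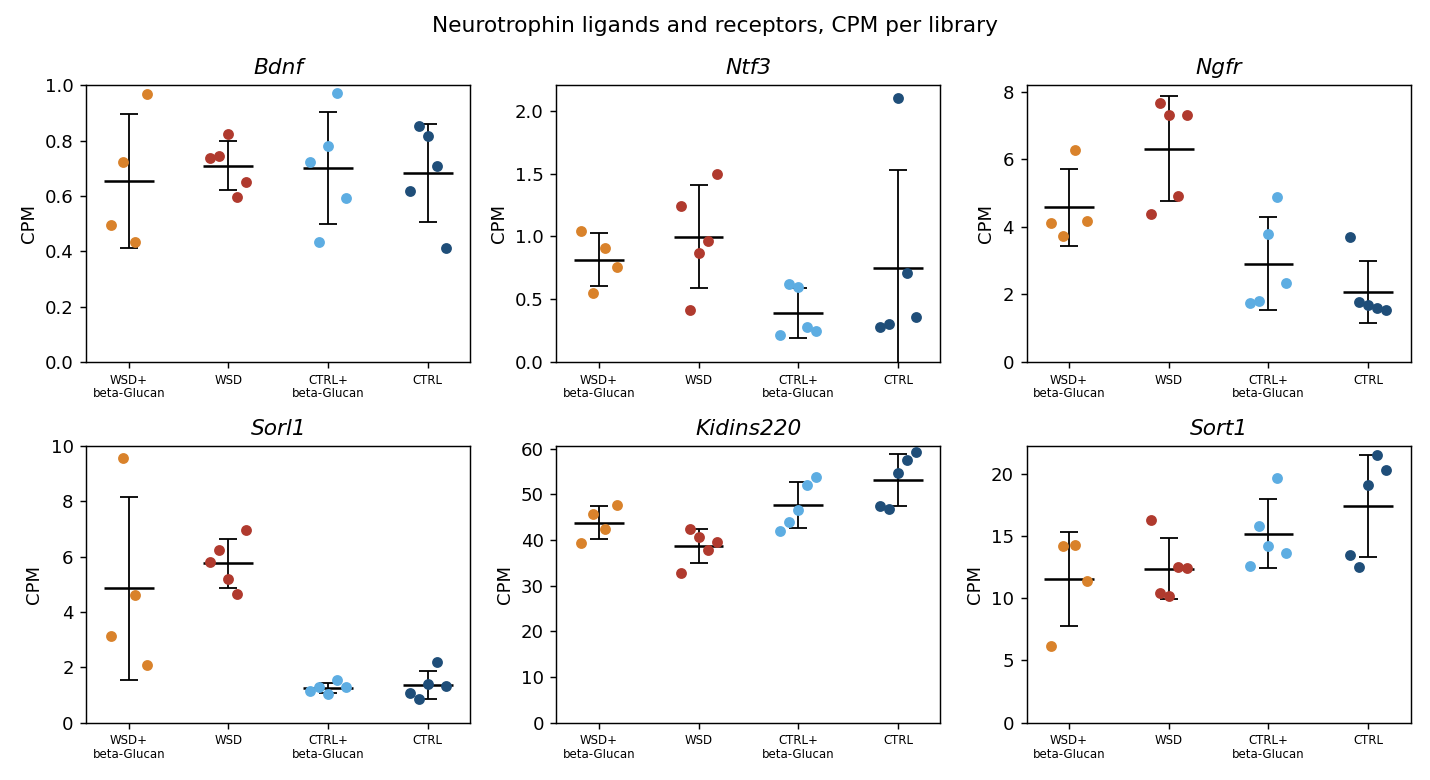
CPM of the TrkB ligands Bdnf and Ntf3 and of 4 neurotrophin receptors or their partners in each library, with group means and SDs; the lower bar of Ntf3 in CTRL is clipped at 0. Ngfr and Sorl1 are higher and Kidins220 is lower in WSD than in CTRL libraries, and Bdnf overlaps in all groups.

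Across 8 lists of the neurotrophin pathway without Ntrk2, 109 of 124 listed genes were tested. Between WSD and CTRL, 42 were higher and 31 lower, or 67.0% against the 53.0% of all genes given above, with a median log2 fold change of 0.13. Without the 3 libraries that stand apart there were 43 and 30. Between WSD+beta-Glucan and CTRL+beta-Glucan, 23 were higher and 12 lower, or 32.1% against 34.3% of all genes tested, a share close to the background. Without the 3 libraries there were 23 and 9. These comparisons share no library with each other, but both share libraries with those of beta-glucan.

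Among genes that process proneurotrophins, 4 of 12 tested were higher and 4 lower in WSD than in CTRL livers, or 66.7% against the 53.0% of all genes. Plau and Plat, the urokinase and tissue plasminogen activators, rose by 3.63 ± 0.30 and 3.78 ± 0.50 on the log2 scale (edgeR adjusted p = 9.36e-09 and 5.06e-06). Plasmin, which they generate, is known to cleave proBDNF. Pcsk7, a proprotein convertase, fell by 0.57 on the log2 scale (edgeR adjusted p = 1.42e-05).

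Among adaptors and kinases downstream of Trk receptors, 16 of 47 were higher and 17 lower, or 70.2% against 53.0% of all genes, in no common direction. Plcg2, a phospholipase C of blood cells, rose by 2.76 ± 0.28 and Gab2, a docking adaptor, by 1.70 ± 0.19 on the log2 scale (edgeR adjusted p = 1.20e-07 and 5.63e-07). Braf, a kinase of the MAPK cascade, fell by 0.84 on the log2 scale (edgeR adjusted p = 3.92e-06). Shc2, a Shc family adaptor best known from neurons and named here after its values were seen, had 12.7, 3.75, 4.58, 5.67 and 13.9 CPM in WSD libraries, against 0.112, 0.0609, 0.233, 0.414 and 0.257 CPM in CTRL libraries. The groups did not overlap (log2 fold change 5.19 ± 0.71, edgeR adjusted p = 1.05e-05).

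Of 6 genes of small GTPases and their regulators, to which the known partner of T1 belongs, 3 were higher in WSD livers and none was lower. This share is close to the 53.0% called among all genes. Arhgdia, the gene of the GDP-dissociation inhibitor known to bind T1, averaged 145 ± 22.1 CPM in WSD livers and 62.5 ± 7.74 CPM in CTRL livers (SD, n = 5 each). It rose by 1.22 ± 0.18 on the log2 scale (edgeR adjusted p = 1.35e-05). Arhgdib, its relative in blood cells, rose by 1.87 ± 0.18, and Cdc42, a small GTPase, by 0.38 ± 0.07 (edgeR adjusted p = 7.19e-08 and 1.63e-04). The same 3 genes passed the test in WSD+beta-Glucan against CTRL+beta-Glucan livers, where Arhgdia had 0.58 ± 0.18 (edgeR adjusted p = 0.0197). That call of Arhgdia was lost with the 2 groups fitted alone and without WSD+beta-Glucan replicate 3, with an adjusted p of up to 0.0871.

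Genes of receptor trafficking and turnover were mixed, with 5 of 15 higher and 6 lower in WSD than in CTRL livers, or 73.3% against 53.0% of all genes. Ehd4, an endosomal protein known from Trk uptake, rose by 1.52 ± 0.17 and Cbl, a ubiquitin ligase of receptor kinases, by 0.73 ± 0.13 on the log2 scale (edgeR adjusted p = 5.63e-07 and 1.13e-04). Traf6, another ubiquitin ligase, fell by 0.56 on the log2 scale (edgeR adjusted p = 7.85e-05). Of the feedback inhibitors, 7 of 13 were higher and 1 lower, or 61.5%. Dusp5 and Dusp4, phosphatases of MAP kinases, rose by 2.26 ± 0.24 and 1.33 ± 0.33, and Ptprs, a receptor phosphatase, by 0.69 ± 0.19 (edgeR adjusted p = 2.12e-07, 0.00232 and 0.00497). In WSD+beta-Glucan against CTRL+beta-Glucan livers, Ehd4, Cbl and Dusp5 passed the edgeR test in the fit reported, and Traf6, Dusp4 and Ptprs did not.

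Of the genes that neuronal activity and BDNF are known to induce, 4 of 9 tested were higher and 1 lower in WSD than in CTRL livers, or 55.6%, close to the 53.0% of all genes. Egr2, an immediate early transcription factor, had 64, 58, 74, 75 and 81 reads in WSD libraries, against 0, 1, 0, 0 and 0 reads in CTRL libraries. It passed the test (edgeR adjusted p = 1.30e-09), and no fold is given against a group with 1 read. Junb rose by 1.33 ± 0.34 and Crem fell by 0.64 on the log2 scale (edgeR adjusted p = 0.00323 and 2.16e-05). In WSD+beta-Glucan against CTRL+beta-Glucan livers, Junb had the other sign, -0.47 ± 0.35, and did not pass (edgeR adjusted p = 0.320). Crem kept its direction there with -0.37 ± 0.10 (edgeR adjusted p = 0.0106), a call lost in 2 of 24 alternative fits.

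Egr2 was the 1 gene of the 109 called in WSD+beta-Glucan against WSD. It had 26, 26, 29 and 16 reads in WSD+beta-Glucan libraries, below every WSD library, and fell by 1.46 on the log2 scale (SE 0.30, edgeR adjusted p = 0.0328). Without WSD+beta-Glucan replicate 1, 2 or 4, without any single WSD library or without the 3 libraries that stand apart, the call was lost, with an adjusted p of up to 0.182. The number of the 109 called as lower was 9 with the 2 groups fitted alone, where 3.07% of all genes were, and 6 with DESeq2, where 2.52% of all genes were. At an unadjusted p under 0.05, 21 of the 109 differed, against 15.6% of all genes tested. In CTRL+beta-Glucan against CTRL, where 0.00736% of all genes were called, none of the 109 passed the edgeR test, with 10 at an unadjusted p under 0.05 against 5.70% of all genes, and DESeq2 also called none.

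Ntrk2 had the difference between WSD and CTRL in common with many genes. Over the 19 libraries, 500 of the 10473 genes compared had a Pearson r of at least 0.9 with it in log2 CPM. These libraries share their group, depth range and scaling, so the value mainly describes the 4 group means. The 6 genes with the highest r were Adam11, Synj2, Stk10, Anxa2, Mmp12 and H2-Q1, with 0.97 to 0.98. H2-Q1 belongs to a family of near-identical genes that may share reads, so its value is uncertain. Mmp12, the macrophage metalloelastase, averaged 14.6 CPM in WSD+beta-Glucan livers and 42.9 CPM in WSD livers, against 0.515 CPM in CTRL+beta-Glucan livers and 0.664 CPM in CTRL livers. Anxa2, the gene of annexin A2, had 114 CPM in WSD+beta-Glucan livers and 173 CPM in WSD livers, against 8.12 and 7.86 CPM in CTRL+beta-Glucan and CTRL livers.

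Within groups the highest r fell to other genes. When each library was set against the mean of its group, 5 of the 6 highest r were 0.89 for Ehmt1, 0.85 for Klhdc7a, 0.83 for Klhl18, 0.82 for Tcf7l2 and 0.80 for Itsn1, with a median of 0.01 over all genes compared (19 libraries in 4 groups). Klhdc7a was also higher in the WSD groups, with 46.9 CPM in WSD+beta-Glucan livers and 38.9 CPM in WSD livers. It had 15.1 CPM in CTRL+beta-Glucan livers and 13.0 CPM in CTRL livers. Unlike Ntrk2, its means were higher with beta-glucan on both backgrounds, though neither difference passed (edgeR adjusted p = 0.508 and 0.878). The other 4 of these had a log2 fold change of WSD over CTRL between -0.42 and 0.00. All these r are the highest picked from 10473 genes, and how high such a maximum reaches by chance was not tested. In the CTRL groups the deviations of Ntrk2 rest on 4 to 18 reads per library.

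Cell type markers differed between the same groups; of all genes tested, 26.0% were higher and 27.1% lower in WSD than in CTRL livers. Hepatocyte markers, 10 genes, summed to 72219 to 106609 CPM in WSD+beta-Glucan libraries and 55742 to 71051 CPM in WSD libraries, against 126521 to 160455 CPM in CTRL+beta-Glucan libraries and 111046 to 148341 CPM in CTRL libraries. Macrophage markers, 8 genes that all passed the test as higher in WSD than in CTRL livers, summed to 344 to 422 CPM and 583 to 729 CPM in WSD+beta-Glucan and WSD libraries, against 37.9 to 132 CPM and 41.0 to 109 CPM in CTRL+beta-Glucan and CTRL libraries. Of 10 stellate cell markers 8 were higher, and they summed to 272 to 389 CPM in WSD libraries, against 86.7 to 230 CPM in CTRL libraries. Of 8 myofibroblast markers 6 were higher, with sums of 213 to 505 CPM in WSD libraries and 21.5 to 103 CPM in CTRL libraries. Acta2 and Tagln, members of that list, overlapped between these groups and peaked in a CTRL library. Acta2 had 1.97 to 5.28 CPM in WSD libraries and 0.408 to 40.0 CPM in CTRL libraries. Tagln had 7.32 to 13.4 CPM in WSD libraries and 2.10 to 30.1 CPM in CTRL libraries. The rise was not particular to these lists. Higher in WSD than in CTRL livers were also 8 of 8 lipid-associated macrophage and 4 of 6 Kupffer cell markers tested. The same held for 6 of 8 endothelial, 6 of 7 T and NK cell and 4 of 8 cholangiocyte markers. Portal fibroblast and mesothelial markers had 5 of 7 higher. No marker of these further lists was lower. Of B and plasma cell markers 1 of 5 was higher, and of neutrophil markers 0 of 3. The part of any of these cells in the level of Ntrk2 was not tested.

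Of 13 nerve and Schwann cell markers, 5 were tested and 4 were higher in WSD than in CTRL livers, beside 26.0% of all genes tested. These markers summed to 8.17 to 13.9 CPM in WSD+beta-Glucan libraries and 10.6 to 15.4 CPM in WSD libraries. The sums were 3.75 to 7.88 CPM in CTRL+beta-Glucan libraries and 3.61 to 6.18 CPM in CTRL libraries. The defining members of the list were close to 0 throughout: Sox10 reached at most 0.0609 CPM, Nefl 0.0461 CPM and Nefm 0.0927 CPM in any library. Ngfr belongs to both this list and the stellate list.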

How the data were processed

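Liver RNA was sequenced in 19 libraries; per the labels' protocols, RNA came from a PureLink kit and went into TruSeq stranded mRNA libraries. Per the submitters' processing notes, Salmon 1.10.1 and DESeq2 1.38.3 were used with build GRCm39, and the transcript set is not given in the sources used here. The deposited files give the authors' estimated counts (expected counts, unscaled), TPM (scaled by effective length within a library) and effective lengths in bases, another unit, for every transcript.

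Of 116546 transcripts, 115977 (99.51%) matched GENCODE M21 by identifier. That annotation belongs to an earlier build, so no genome coordinates are given; transcript forms, exons and sequences come from it. Unmatched transcripts held 0.0623 to 0.1095% of reads and were left out. Estimated counts were summed per gene and rounded to whole numbers. In R 4.3.3, edgeR 4.0.16 (filterByExpr, 13594 genes, TMM, robust quasi-likelihood F test, common dispersion 0.0341) fitted 4 group means to all libraries, with Benjamini-Hochberg adjustment over all genes tested and a threshold of 0.05. The fit was also run on counts simulated from its own estimates, with far fewer genes changed than were called between WSD and CTRL. That outcome is not given here and lends no support to the calls. DESeq2 1.42.0 was an alternative, beside another scaling, plain depth for Ntrk2, no filter, 2 groups alone and libraries left out. Log2 CPM used a prior count of 2. Correlations are Pearson's r over genes with a mean of at least 2 CPM and are descriptions.

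Groups come from the labels; replicates are numbered in order of deposition. Ntrk2 and all lists were chosen with earlier results of these data known. Named genes are all ligands and receptors, up to 3 members of each other list with the smallest p among those called, the 5 receptor tyrosine kinases with the highest fold change and the 6 genes most like Ntrk2 by each measure; exceptions are marked. Some genes that these criteria take are not reported here. Reads have no molecular identifiers, so intervals and floors of 3 reads cover counting error only.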

Additional observations from a re-analysis of the deposited data

Results flagged for a closer look

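Among 104 sets of 4 or 5 libraries, for 25 genes and the isoform shares of Ntrk2 in the WSD groups, 8 had a library far from the others of its group; chance flags about 1 in 20 groups. In CTRL, the highest library had 2.10 CPM of Ntf3, 3.71 CPM of Ngfr, 11.6 CPM of Klhl18 and 0.0609 CPM of Egr2, the last being a single read. In WSD+beta-Glucan, the highest library had 141 CPM of Adam11 and 17.6 CPM of Ehmt1. Itsn1 had one high library in WSD with 36.2 CPM and one in CTRL+beta-Glucan with 34.1 CPM. Ntrk2 itself had no such library in any group.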

How the results depend on the processing

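Ntrk2 kept the direction of its log2 fold change in every alternative for WSD over CTRL, for WSD+beta-Glucan over CTRL+beta-Glucan and for WSD+beta-Glucan over WSD, where leaving out a library gave -0.52 to -0.32. By summed TPM the first 2 were 6.15 and 5.71, and by reads over plain depth, added after the data were seen, 5.96 and 5.53; leaving out the TMM factors shifts every gene by 0.47 and 0.30. Of the 109 pathway genes, the number lower in WSD+beta-Glucan than in WSD, 1 in the fit reported, was 9 with the 2 groups alone, 6 with DESeq2, 0 without the 3 libraries that stand apart and 0 to 3 with single libraries left out; the cause was not tested. Of the 6 genes most like Ntrk2 over the 19 libraries, 1 remained among the first 6 by Spearman's rank correlation and 3 without those 3 libraries, and of the 6 by deviations from group means 2 remained without them. Depth limits the isoforms of the CTRL groups, where a library had 4 to 18 Ntrk2 reads. No paired analysis was possible because replicate numbers follow only the order of deposition.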
